A study of Caenorhabditis elegans with 4 samples.

Results

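The left arm of chromosome II carried 895 of the 14662 LIN-61 peaks in the authors' list for the whole series, which is 6.10% of the peaks on 5.08% of the sequence. These peaks were chosen by position alone: the midpoint of each lies in the first of 3 equal sections of chromosome II, which is its first 5.09 Mb in WormBase WS220. The same window held 665 peaks in the list of ChIP replicate 1 and 872 peaks in the list of ChIP replicate 2. LIN-61 was mapped by chromatin immunoprecipitation and sequencing (ChIP-seq) with an affinity-purified rabbit polyclonal antibody in wild-type Caenorhabditis elegans of strain N2, as third-stage (L3) larvae kept at 20 degrees Celsius. The cultures mixed males and hermaphrodites, and the chromatin came from whole larvae, so the peaks cannot be assigned to a tissue. The series has 2 ChIP libraries and 2 input DNA libraries, and the inputs were not analysed here. Nothing in the labels tells whether each ChIP library had a culture of its own, so their spread may be technical. Read depth is unknown for all 3 peak lists, so fewer reads and fewer bound sites cannot be told apart where the replicates differ in peak number.

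LIN-61 contains MBT repeats, a protein fold that binds methylated lysines on histone tails, and it belongs to the synMuv B group of genes, which repress transcription and were found through their role in vulval development. In C. elegans the autosome arms are richer in repeats and in histone H3 lysine 9 methylation than the centres, and LIN-61 is known to bind that mark. Chromosomes of this species are holocentric, so the arms are not set apart by a localised centromere.

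LIN-61 peaks on the II left arm were of middling density among chromosome arms but stood high in median width and median score. Peak density was 131 per Mb in replicate 1 and 171 per Mb in replicate 2, or 151 ± 29 (SD, n = 2). Peaks covered 6.05% of the arm in replicate 1 and 9.35% in replicate 2. The authors' whole-series list gave 176 peaks per Mb and 11.1% of bases covered. Among the 12 chromosome arms, the II left arm was in place 7 by density in both replicates and in place 8 in the whole-series list. The 12 include the arms of X, which were the sparsest in all 3 lists. By the median score of its peaks within their list it was in place 2 in all 3 lists, behind the left arm of III. Its median score stood at percentile 65.7 of the replicate 1 list, 58.4 of the replicate 2 list and 61.2 of the whole-series list. The score is the authors' own value for each peak, its meaning is not stated, and it is used here only to rank peaks within a list. By median width the arm was in place 2 in replicate 1 and in place 3 in both other lists.

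The arm differed from the middle section of its own chromosome in the same direction in both replicates. Density was 131 and 171 peaks per Mb on the II left arm, against 37.1 and 55.4 in the II centre, for replicates 1 and 2. The difference was 104.7 ± 16 peaks per Mb and the ratio 3.31 ± 0.30 (SD, n = 2). The median peak width was 317 bp and 336.5 bp on the II left arm, against 245 bp and 290.0 bp in the II centre, a difference of 59.3 ± 18 bp (SD, n = 2). The median score was higher by 25.5 percentile points in replicate 1 and by 22.7 in replicate 2. With the signs of the 2 replicate differences flipped, an exact two-sided permutation test gave p = 0.5 for density, width and score, which is the smallest p that 2 replicates allow. With peaks of a list less than 500 bp apart merged, the density difference was 59.7 peaks per Mb and the width difference 145 bp, and in peaks at or above the median score of their list the width difference was 105 bp.

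By peak number, the replicates placed the left and right arms of chromosome II in opposite orders. Replicate 1 had 131 peaks per Mb on the II left arm, against 114 on the II right arm, and replicate 2 had 171 against 176. The whole-series list had 176 on the II left arm against 190.3 on the II right arm. The mean difference was 5.60 ± 15 peaks per Mb (SD, n = 2), with p = 1 in the exact permutation test. Merging peaks less than 500 bp apart turned its sign, to -1.37, and in peaks at or above the median score it was 19.7. The score differed in 1 direction in both replicates: the median percentile was 65.7 and 58.4 on the II left arm, against 51.3 and 48.7 on the II right arm (exact permutation p = 0.5, the smallest possible). Widths pointed the same way, with medians of 317 bp and 336.5 bp on the II left arm, against 285 bp and 320.0 bp on the II right arm. Broad peaks pointed the other way: peaks of 2 kb or more made up 0.752% and 2.98% of the II left arm peaks, against 2.40% and 4.12% of the II right arm peaks. Relative to the left arm of III, the arm next to it in the order by score, the II left arm had 0.532 ± 0.075 of the density (SD, n = 2), with 131 and 171 peaks per Mb against 272 and 293.

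**Figure D1:**
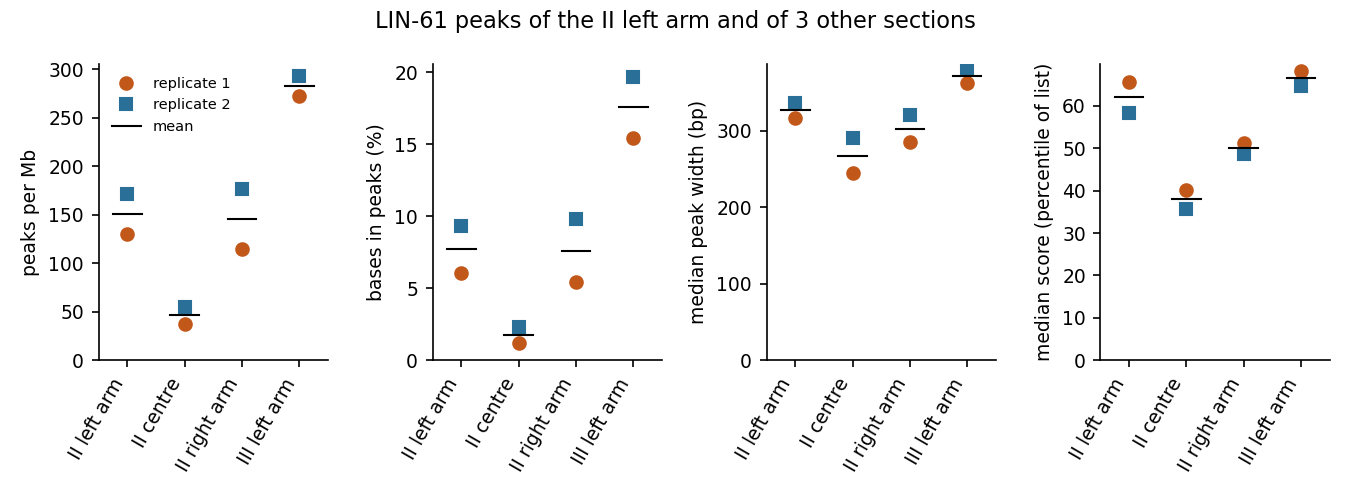
Peak density (per Mb), bases in peaks (%), median peak width (bp) and median score (percentile within the list) for the II left arm and 3 other chromosome sections; circles are replicate 1, squares replicate 2 and lines their mean. The II left arm sits above the II centre in every panel in both replicates, overlaps the II right arm in density and covered bases, and lies below the III left arm in every panel.

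Along the arm the peaks were uneven, and both replicates had their 3 densest bins at the same positions. The arm was divided into 500 kb bins from the chromosome end, with a last bin of 93.1 kb. The densest bin was positions 1000001 to 1500000, with 166 peaks in replicate 1, 192 in replicate 2 and 182 in the whole-series list. Its density was 358 ± 37 peaks per Mb (SD, n = 2). The share of its bases inside peaks was 16.4% in replicate 1 and 23.1% in replicate 2. It held 20.3% of the 895 peaks on 9.82% of the arm. The bins from 2000001 to 2500000 and from 2500001 to 3000000 followed, with 271 ± 44 and 230.0 ± 2.8 peaks per Mb. These 3 bins exceeded 200 peaks per Mb in all 3 lists, and no other bin did so in any list.

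A trough separated the densest bin from the next. Between 1500001 and 2000000 there were 26 peaks in replicate 1 and 62 in replicate 2, or 88.0 ± 51 per Mb (SD, n = 2). The replicates differed most in this bin, by a factor of 2.38. In the bin from 2500001 to 3000000 they were closest, at 116 and 114 peaks, and replicate 2 had more peaks in the other 10 of the 11 bins. The sparsest bin was 4500001 to 5000000, near the centre, with 17 and 24 peaks, or 41.0 ± 9.9 per Mb. The short last bin beyond it had 3 and 5 peaks. Across the 11 bins the density of the replicates had a Spearman's rho of 0.952, and across 51 bins of 100 kb it was 0.866. Bins share their libraries and are not independent, so these values are descriptions and have no p.

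The outermost part of the arm was not its densest part. With limits set after the profile was seen, the 2 Mb from 1000001 to 3000000 made up 39.3% of the arm and held 64.4% of its replicate 1 peaks, 59.5% of its replicate 2 peaks and 58.3% of the whole-series peaks. Density there was 236.8 ± 32 per Mb (SD, n = 2). It was 104.5 ± 29 per Mb in the outer 1 Mb and 91.0 ± 25 per Mb from 3000001 to the inner edge. Peaks of the middle part were also wider, with a median of 440.0 bp in the whole-series list, against 326 bp in the outer part and 332 bp in the inner part.

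At 100 kb the middle part resolved into separate clusters. The densest 100 kb, from 1300001 to 1400000, had 55 peaks in replicate 1, 59 in replicate 2 and 55 in the whole-series list. The next were 2200001 to 2300000, with 45 and 44 replicate peaks, and 2400001 to 2500000, with 40 and 44. Between those, positions 2300001 to 2400000 held 7 and 12. Inside the sparser inner part, positions 3900001 to 4000000 formed an isolated rise with 25 and 33 peaks, whereas the 100 kb just before them had 2 and 5. The 10 densest of the 51 bins took up 19.6% of the arm and held 55.3% of its peaks in replicate 1 and 43.0% in replicate 2. Replicate 1 left 2 of the 51 bins empty and replicate 2 left 0 empty.

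**Figure D2:**
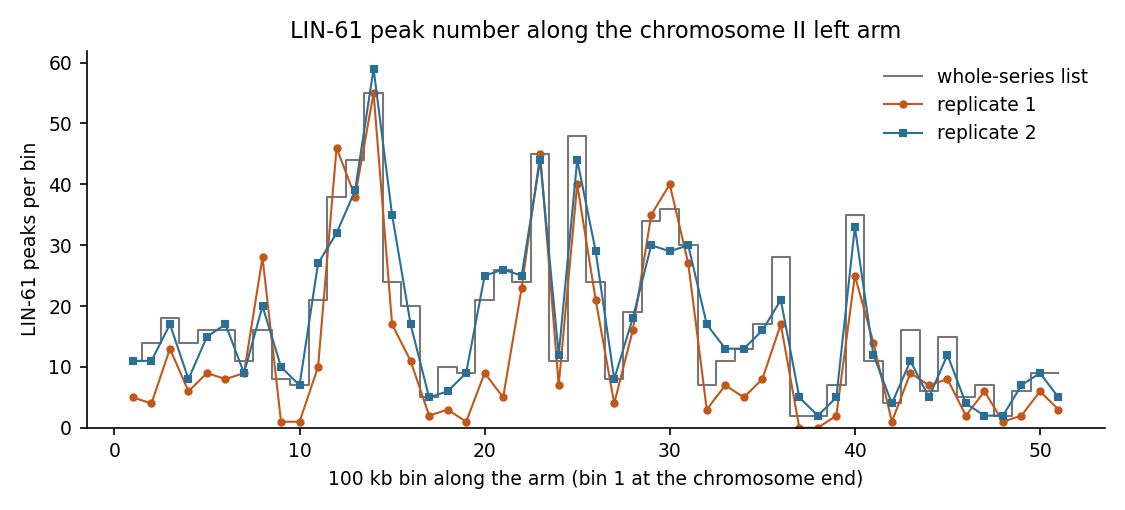
Number of LIN-61 peaks (y axis) in each of 51 consecutive 100 kb bins of the II left arm (x axis, bin 1 at the chromosome end; the last bin is 93.1 kb); circles are replicate 1, squares replicate 2 and the grey steps the whole-series list. The highest bin has 55 and 59 replicate peaks, and bins 12 to 14, 23, 25, 29 to 31 and 40 have at least 25 peaks in each replicate.

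Peaks in the dense parts formed long runs. A stretch was defined as consecutive peaks of one list less than 5 kb apart, and a shared stretch as the interval that lies in a stretch of both replicates. The longest shared stretch ran for 50.6 kb, from 2176165 to 2226722. It held 43 peaks in replicate 1, 47 in replicate 2 and 40 in the whole-series list, 35 of which were overlapped in both replicates. Peaks covered 49.3% of this stretch in replicate 1 and 52.8% in replicate 2. The second ran for 49.1 kb, from 1320564 to 1369682, with 43 and 41 replicate peaks and 53.5% and 58.4% of its bases covered.

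The next 3 shared stretches were 34.0 kb (2875283 to 2909314), 30.8 kb (2452750 to 2483585) and 25.9 kb (1199529 to 1225406) long. The first of these was the loosest, with 21 and 15 replicate peaks covering 30.5% and 33.4% of it. The 30.8 kb stretch had 23 and 24 peaks covering 53.8% and 56.0%. In all, 9 shared stretches reached 20 kb. They took up 5.47% of the arm and held 31.9% of its replicate 1 peaks and 22.5% of its replicate 2 peaks. At the other extreme, 67 of the 895 whole-series peaks (7.49%) had no other peak of the list on the arm within 5 kb.

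**Figure D3:**
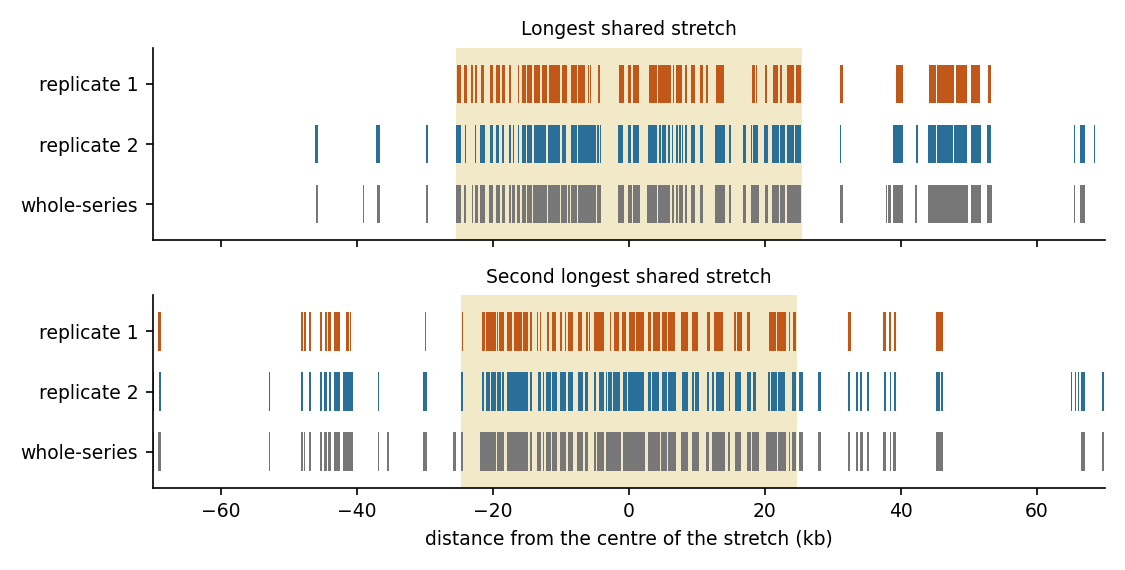
Peaks of replicate 1, replicate 2 and the whole-series list (rows) around the longest and the second longest shared stretch, drawn to scale against distance from the centre of the stretch (kb); the shaded band is the shared stretch, 50.6 kb and 49.1 kb long. Inside the bands the replicates have 43 and 47 peaks, and 43 and 41 peaks.

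The arm also had long intervals without any peak, most of them in its inner part. With the 3 lists combined, 10 intervals of at least 50 kb held no peak, and they added up to 699 kb, or 13.7% of the arm. The longest spanned 95.6 kb, from 2059729 to 2155350. It lies beside the longest shared stretch, which begins 20.8 kb to its right, and 3.33 kb to its left is the peak with the fourth highest score on the arm. The next were 93.0 kb (4762414 to 4855427), 88.9 kb (3822030 to 3910945) and 71.6 kb (3697836 to 3769409), all in the inner part.

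Most peaks on the arm were narrow. In replicate 1 the central 50% of widths ran from 199 bp to 594 bp, and in replicate 2 from 216 bp to 651.5 bp. In the whole-series list they ran from 231 bp to 739.5 bp with a median of 384 bp. The narrowest peak was 146 bp in each list, which is also the narrowest of each whole list, and 27 replicate 1 peaks and 24 replicate 2 peaks on the arm had exactly that width. Width and score went together: across peaks, Spearman's rho was 0.761 in replicate 1, 0.712 in replicate 2 and 0.707 in the whole-series list. Whole-series peaks under 300 bp had a median score of 4.82 and those of 1 kb to under 2 kb a median of 46.4.

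Broad peaks, of 2 kb or more, were about as frequent on the arm as elsewhere in the whole-series list. There were 40 of them, or 4.47% of the 895 (95% interval 3.21 to 6.04), and 4.68% of the whole list reached that width. They held 23.2% of the bases in whole-series peaks on the arm. The replicates had fewer, 5 in replicate 1 (0.752% of its arm peaks) and 26 in replicate 2 (2.98%). By this share the arm was in place 11 of the 12 arms in replicate 1. It was in place 7 in replicate 2 and in place 6 in the whole-series list. Just below the limit were 2 peaks of 1997 bp and just above it 1 of 2033 bp. Of the 40, 26 lay between 1000001 and 3000000 (65.0%), and 14 in the densest 500 kb bin.

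Few of these broad regions held a broad peak in replicate 1, and more of them did in replicate 2. Replicate 1 had fewer broad peaks than replicate 2 in every chromosome section, for example 14 against 37 on the II right arm. How the replicates split broad regions elsewhere was not counted, so the splits below are not shown to be particular to the arm. Of the 40 broad peaks, 35 (87.5%) were overlapped in both replicates, against 92.7% of the broad peaks in the whole list, and the other 5 in replicate 2 alone. In 28 of the 40 the region was split into at least 2 peaks in replicate 1, and in 20 of them in replicate 2. A peak of 2 kb or more lay under 4 of them in replicate 1 and under 25 in replicate 2, the 4 being among the 25. Replicate 1 peaks covered a median of 74.0% of their bases and replicate 2 peaks 92.8%. In 10 of the 40, replicate 1 covered less than 50% and replicate 2 more than 90%, and the reverse was seen in 0 of them.

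The widest peak on the arm showed this difference in full. It spans 6954 bp, from 1232909 to 1239862, and scored 65.4 in the whole-series list. In replicate 2 it was a single peak of 6731 bp with a score of 69.0, each score being on the scale of its own list. In replicate 1 it was 6 peaks of at most 305 bp, the best with a score of 8.30, which covered 19.6% of it. The next broad peaks to its right, 2986 bp from 1240711 to 1243696 and 2943 bp from 1243871 to 1246813, were covered to 92.6% and 100.0% in replicate 2 and to 15.7% and 29.2% in replicate 1. These 3 peaks form one region in which the replicates went apart.

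The other peaks among the 10 widest differed in how far each replicate covered them. The second widest spans 6832 bp, from 723750 to 730581, was drawn as 7 peaks in each replicate, and was covered to 80.3% and 86.4%. The peak of 4649 bp from 2246695 to 2251343 was 2 peaks in each replicate, the widest of them 2437 bp and 2384 bp, and was covered to 88.3% and 91.3%. The third widest, 6372 bp from 2281466 to 2287837, was 5 peaks in replicate 1, covering 76.6% of it, and 1 peak of 6430 bp in replicate 2. The fourth, 5870 bp from 693681 to 699550, was 7 peaks in replicate 1, covering 37.6%, and 1 peak of 6010 bp in replicate 2.

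The last 4 of the 10 widest lay from 1129347 to 1133706 (4360 bp), from 3160744 to 3165068 (4325 bp), from 4050978 to 4055075 (4098 bp) and from 3077028 to 3081060 (4033 bp). The one of 4325 bp was thinly covered in both replicates, to 8.23% in replicate 1 and 44.9% in replicate 2, and scored 11.2. The one of 4033 bp was covered to 89.0% in replicate 1 and 80.8% in replicate 2, so that here replicate 1 had the larger share. The peaks of 4360 bp and 4098 bp were covered to 81.6% and 55.9% in replicate 1, and to 92.6% and 99.0% in replicate 2.

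Of the 5 broad peaks with no replicate 1 peak, 4 scored 16.3 or less. The one from 1450469 to 1454859, 4391 bp wide and the sixth widest on the arm, scored 8.65, and its neighbour from 1455788 to 1458843 scored 16.3. The one from 16062 to 18226, close to the chromosome end, scored 6.15. The exception lay from 1033705 to 1036546. It scored 51.4 in the whole-series list and 95.8 for its best replicate 2 peak, each on the scale of its own list.

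**Figure D4:**
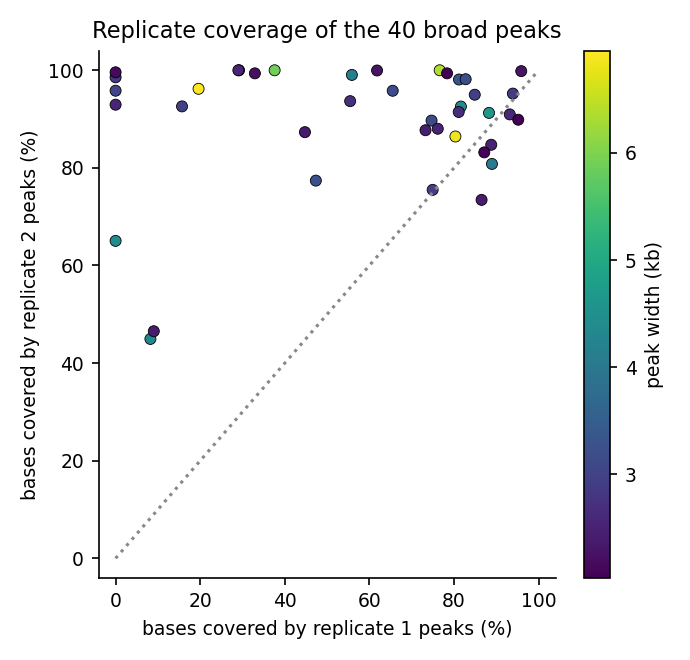
Percentage of the bases of each of the 40 broad peaks that is covered by replicate 1 peaks (x axis) and by replicate 2 peaks (y axis), coloured by width in kb; the dotted line marks equal coverage. In 34 of the 40 the replicate 2 coverage is the higher, and 5 peaks lie at 0% in replicate 1.

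The highest-scoring peaks were mostly of moderate width, and most of their bases lay in peaks of both replicates. The 10 highest-scoring whole-series peaks on the arm that were overlapped in both replicates had widths from 627 bp to 4649 bp, with a median of 1328.5 bp. Replicate 1 peaks covered 77.4% to 95.5% of each and replicate 2 peaks 87.9% to 100.0%. In 8 of the 10 a single peak of each replicate lay under the whole-series peak. Of the 10, 6 lay between 2000001 and 2500000, and 5 lay inside shared stretches of at least 20 kb.

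A score of 167.5 was shared by the peak from 2222492 to 2223557, 1066 bp wide, and the peak from 2455677 to 2456980, 1304 bp wide. The first scored 171.1 in replicate 1 and 119.1 in replicate 2, each on the scale of its own list. It lies at the right end of the longest shared stretch, and the second lies in the 30.8 kb stretch. The peak from 2214173 to 2215525 followed with a score of 165.3, also inside the longest stretch. Next was the peak from 2054457 to 2056403, 1947 bp wide with a score of 164.3, which lies 3.33 kb from the longest peak-free interval. The peaks from 2246695 to 2251343, with a score of 147.3, and from 2240633 to 2241759, with 146.3, complete the 6 in this 500 kb bin.

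Elsewhere on the arm, a peak of 627 bp from 732281 to 732907, with a score of 163.2, had the smallest width among the 10. A further pair lay close together in the outer part, from 456274 to 457627 with a score of 152.6 and from 462698 to 463455 with 144.2. Between them lay a broad peak of 2289 bp, from 459428 to 461716, covered to 95.9% in replicate 1 and 99.8% in replicate 2. In the inner part the peak from 3510861 to 3512359 scored 147.3. Ranked by score over all chromosomes, the arm had 11 of the top 100 whole-series peaks and 136 of the top 1000, or 13.6%. Its share of the whole list was 6.10%.

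Replicate support was higher on the II left arm than in the series as a whole. Of the 895 whole-series peaks, 431 were overlapped by at least 1 bp in both replicates, or 48.2% (95% interval 44.8 to 51.5), against 37.2% of the whole list. A further 300 (33.5%) were overlapped in replicate 2 alone and 69 (7.71%) in replicate 1 alone. The remaining 95 were overlapped in neither, or 10.6% (8.67 to 12.8), against 14.3% of the whole list. With each replicate taken singly, 81.7% of the 895 were overlapped in replicate 2 and 55.9% in replicate 1. On the II right arm these shares were 77.0% and 41.4%, so the larger share for replicate 2 was not particular to the arm. From the side of replicate 1, 81.2% of its arm peaks (540 of 665) had a match in replicate 2, against 74.7% over all chromosomes. From the side of replicate 2 the share was 55.8% (487 of 872), against 47.1%. Intervals are exact binomial, cover counting error only and treat neighbouring peaks as independent, so the differences are given with no test.

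Among the 12 arms, the II left arm was in place 2 by the share found in both replicates, after the left arm of III at 53.1%. The share was 48.2% on the II left arm, against 33.0% on the II right arm and 30.5% in the II centre. The order was the same under a stricter rule, a reciprocal overlap of 50%: 29.6% on the II left arm, against 13.3% on the II right arm, 11.1% in the II centre and 17.99% in the whole list.

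Support on the arm followed score closely, and its relation to width depended on the overlap rule. With an overlap of 1 bp it rose from 14.2% under 300 bp to 87.5% at 2 kb or more. With a reciprocal overlap of 50% it was 13.9% under 300 bp, 44.3% from 1 kb to under 2 kb and 20.0% at 2 kb or more. The other values here use the 1 bp rule. Of the highest-scoring 25% of the 895, 97.3% were found in both replicates (95% interval 94.3 to 99.0), and of the lowest-scoring 25%, 3.13% (1.27 to 6.33). Of the lowest-scoring 25%, 48.2% were found in replicate 2 alone and 32.6% in neither. Peaks found in both had a median width of 642 bp and a median score of 30.5. Those in replicate 2 alone had 285 bp and 6.31, those in replicate 1 alone 207 bp and 4.47, and those in neither 195 bp and 4.13. By bases, 70.5% of the whole-series peak sequence on the arm lay in peaks found in both. The whole-series list and the replicate lists rest on the same 2 ChIP libraries. A peak's whole-series score and its overlap with the replicate lists are therefore not independent.

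High scores were more frequent on the arm, and among them, though hardly among lower scores, the share found in both replicates was also larger. The highest-scoring 25% of the whole list made up 36.9% of the II left arm peaks, against 24.2% of all other peaks. Within that group 93.3% of the II left arm peaks (90.1 to 95.8) were found in both replicates, against 86.3% (85.1 to 87.5) of the others. On the left arm of III the share within that group was 95.5%. In the lowest-scoring 25% of the list the shares were 2.02% (0.553 to 5.09) on the arm and 2.16% (1.70 to 2.70) elsewhere. In the next 25% they were 12.3% and 12.4%, and in the 25% above that 50.0% (42.8 to 57.2) and 47.0% (45.3 to 48.7). By width, 62.5% (57.7 to 67.2) of the II left arm peaks of 300 bp to under 1 kb were found in both replicates, against 48.7% (47.4 to 50.0) of the others. For broad peaks the order was the other way, with 87.5% (73.2 to 95.8) on the arm and 93.0% (90.8 to 94.9) elsewhere, and those intervals overlap.

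**Figure D5:**
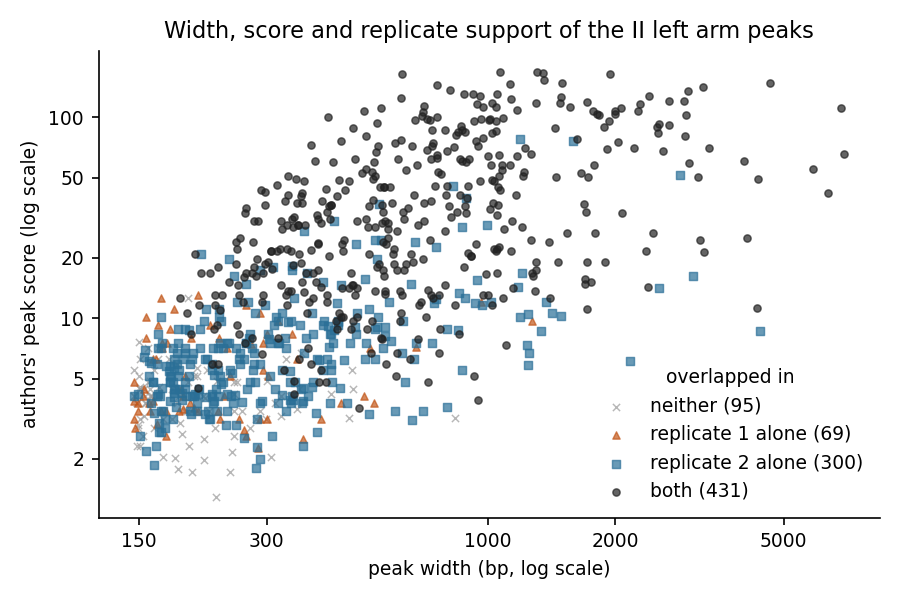
Width (bp, log scale) and authors' score (log scale) of the 895 whole-series peaks of the II left arm, marked by the replicates that overlap them: 431 both, 300 replicate 2 alone, 69 replicate 1 alone and 95 neither. Peaks found in both fill the upper right, and those found in neither lie at scores of 12.6 or less and widths of 835 bp or less.

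Support also varied along the arm. It was highest in the dense bins, at 62.8% (76 of 121) from 2500001 to 3000000, 58.2% (106 of 182) from 1000001 to 1500000 and 56.5% (87 of 154) from 2000001 to 2500000. In the trough from 1500001 to 2000000 it was 32.3% (21 of 65), and in the sparsest bin 24.1% (7 of 29). Median scores were higher in the same bins, at 13.1, 16.6 and 16.8, against 7.52 in the trough and 6.31 in the sparsest bin.

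Where the replicates matched 1 peak to 1 peak, they placed it closely. For 297 of the 431 whole-series peaks found in both, exactly 1 peak of each replicate overlapped the peak and overlapped no other. Split and joined peaks are thereby left out. Over all replicate 1 peaks on the arm, 81.2% overlapped a replicate 2 peak by 1 bp, and 47.1% by a reciprocal 50%. In the 297 the starts of the replicate peaks differed by a median of 59 bp, the ends by 54 bp and the midpoints by 43 bp. In 90% of them the midpoints were within 163 bp. The median width was 369 bp in replicate 1, 421 bp in replicate 2 and 534 bp in the whole-series list. Replicate 2 had the wider peak in 176 of the 297 (59.3%). The sequence inside peaks of both replicates came to 242 kb over the arm, 78.6% of what replicate 1 covered and 50.9% of what replicate 2 covered.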

How the data were processed

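ChIP libraries 1 and 2 were analysed through 3 peak lists. Reads were aligned with BWA to ce10, per the submitters' processing notes, and peaks were called with MACS on WormBase WS220, per the file headers. Versions, thresholds, filters, the use of input as a control and the way the whole-series list was made stay unstated in the labels and headers. The deposited columns used are peak positions and a score, whose meaning is not stated. No file gives reads, so depth is unknown. Positions are 1-based.

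Each chromosome was taken to reach as far as its last peak in the 3 lists and was divided into 3 equal sections, and a peak belongs to the section holding its midpoint. Overlap means at least 1 bp. Functions were checked on simulated lists. Named peaks are the 10 highest-scoring ones overlapped in both replicates and the 10 widest, with the 5 longest shared stretches and the densest and sparsest bins. Other regions in the text were singled out after their values were seen: the trough, the single 100 kb bins, the peak-free intervals, the limits at 1 and 3 Mb, and the broad peaks outside the 10 widest. The window and rules were chosen with earlier results of these data known. Density, width and score differences were tested by exact sign-flip permutation over the 2 replicates, the score differences having been added after the data were seen. Alternatives are a score threshold, other overlap, gap, width and bin rules, merging, outer 25% arms, single replicates and the whole-series list. Genes and sequences at the peaks were not analysed here, since no WS220 genome or annotation was used. Python 3.11.15, numpy 2.4.6, pandas 2.3.3, scipy 1.17.1 and matplotlib 3.10.9 were used.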

Additional observations from a re-analysis of the deposited data

How the results depend on the processing

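The difference in density, width and score from the II centre, and in score from the II right arm, kept its sign under every alternative run for it, with p = 0.5 in the exact permutation test wherever both replicates entered, but its size moved. The density difference from the II centre (104.7 peaks per Mb) was 74.5 in peaks at or above the median score of their list, 59.7 with neighbours under 500 bp apart merged, 121.9 with outer 25% arms and 113.9 in the whole-series list, and ran from 93.5 to 115.8 with a replicate left out. The width difference (59.3 bp) was 105 bp with the score threshold, 145 bp with merging and 58.0 bp with outer 25% arms, and ran from 46.5 to 72.0 bp with a replicate left out. The score difference ran from 17.8 (whole-series list) to 25.5 percentile points against the II centre and was at least 9.73 against the II right arm (12.1). The density difference from the II right arm (5.60 peaks per Mb) was 19.7 with the score threshold and 4.45 with outer 25% arms, reversed to -1.37 with merging and to -14.5 in the whole-series list, and ran from -4.91 to 16.1 with a replicate left out. With the score threshold, arm density was 91.4 per Mb, the median width 504 bp, support in both replicates 59.3%, and 68.5% of replicate 2 peaks were found in replicate 1. Merging gave a density of 91.8 per Mb, a median width of 466.8 bp and 12.6% broad peaks. In the whole-series list 11.1% of the arm was covered, the median width was 384 bp and 4.47% of peaks were broad; 10.3% of replicate peaks reached 1 kb. Under reciprocal overlap and under the midpoint rule, support in both was 29.6% and 38.3%, replicate 1 peaks found in replicate 2 were 47.1% and 74.3%, and replicate 2 peaks found in replicate 1 were 35.9% and 46.7%. Support by 1 replicate in place of both ran from 55.9% to 81.7%. The longest stretch was 39.5 kb with a gap of 2 kb, 78.5 kb with 10 kb and 69.5 kb in the whole-series list, and 50.6 to 63.9 kb in single replicates. The cause of these changes was not tested beyond what each rule itself removes or joins. Values with no test, under the alternatives not given here, moved by less than the spread between replicates or stayed inside their interval. The score contrasts and the bin profile in single replicates were chosen after the data were seen. Unknown depth limits any reading of peak number between replicates. No paired analysis was possible because ChIP and input, the groups that share replicate numbers, were not compared: the 3 peak lists hold no values of the inputs. The differences between chromosome sections were each taken within a replicate. With 2 replicates no permutation test can pass 0.05, so an unchanged p says nothing about stability.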

Other observations

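The chromosome end itself carried a peak. It spans positions 1 to 265 in the whole-series list (score 16.0), 1 to 164 in replicate 1 (score 28.5) and 113 to 268 in replicate 2 (score 10.4), each score on the scale of its own list. The replicate intervals overlap, so the end is among the sites found in both. At the inner edge the last peak began at 5076003 in the whole-series list, at 5021942 in replicate 1 and at 5073509 in replicate 2.

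Some replicate peaks on the arm had no counterpart in the whole-series list: 43 of the 665 in replicate 1 and 44 of the 872 in replicate 2. Of these, 0 in either replicate overlapped a peak of the other. They were narrow and low in score, with median widths of 190.0 bp and 164 bp and median scores of 3.25 and 3.62. Such peaks were not particular to the arm. The share of peaks with a counterpart was 93.5% in replicate 1 and 95.0% in replicate 2. It was 91.6% and 95.3% on the II right arm, and 88.9% and 94.0% in the II centre.

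In the whole-series list 22 runs of at least 10 peaks less than 5 kb apart held 421 of the 895 peaks (47.0%) on 12.9% of the arm. In replicate 1, 20 such runs held 56.8% of the peaks on 9.44% of the arm, and in replicate 2, 25 runs held 52.2% on 13.04%.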
